A study of Homo sapiens with 12 samples.

Results

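Sorted CD24-low SUM159 tumour cells from mice on a fasting-mimicking diet were compared with the same population from mice on a standard diet. The comparison used every library titled as CD24-low, 3 from the fasting-mimicking diet (FMD_LO) and 3 from the control diet (CTR_LO), which is 6 of the 12 libraries of the series. It covered each gene with enough counts to be tested, 15461 of 26475 gene symbols, and the comparison itself took no gene by its values; the genes named below were in part taken for their p-values or after their values were seen. SUM159 (SUM159PT) is an established human breast cancer cell line without oestrogen receptor, and all libraries came from this 1 line.

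In all groups SUM159 cells had been injected into female NOD scid gamma mice that were 8 weeks old at injection. CTR_LO mice ate standard diet, and FMD_LO mice went through weekly cycles with 4 consecutive days of the fasting-mimicking diet. Dissociated tumours were stained with antibodies to human CD44 and human CD24, and CD44-positive cells with little CD24 were sorted. The labels do not say whether a library held the cells of 1 mouse or of several, so p-values measure the spread between these libraries, which may be in part technical. The other 6 libraries, CD24-high cells of both diets (CTR_HI and FMD_HI), entered the fit and served to compare the size of the diet difference.

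CD44-positive cells with little CD24 are a widely used stand-in for the stem-like cells of breast tumours, which start new tumours on transplantation. A fasting-mimicking diet supplies few calories, little protein and little sugar, and in mice it lowers blood glucose, insulin and insulin-like growth factor 1. Those signals reach cells through PI3K, AKT and mTORC1, which drive the making of ribosomes, lipids and new cells, and their fall frees FOXO factors, autophagy and the burning of fat. Glucagon and adrenaline, which act when food is scarce, raise cyclic AMP and protein kinase A. NOD scid gamma mice lack mature T, B and NK cells, yet keep neutrophils, macrophages, mast cells, vessels and connective tissue. A host read that aligns to the human genome is counted under the human gene name, and the sources at hand do not say whether mouse reads were removed.

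The 3 FMD_LO libraries were the shallowest of the series, with 17736610 to 18579816 counts against 29820825 to 47587142 in CTR_LO. They also stood apart on the first principal component, which held 57.4% of the variance, at 79.5 to 88.9 against -46.1 to 2.35 for the other 9. Thinning each library to the smallest total left 1775 genes higher and 628 lower, close to the numbers at full depth given below. Levels are given as CPM, counts scaled to the normalised library size, by library in the order of replicates 1, 2 and 3 or as mean ± SD (n = 3), and log2 fold changes with their standard error. Vimentin, the intermediate filament of mesenchymal cells, was high in both groups (VIM, 4818 ± 458 CPM in CTR_LO against 5774 ± 625 CPM in FMD_LO). EPCAM, a surface antigen of luminal epithelium, was near 0 (0.476 ± 0.468 CPM in CTR_LO against 0.154 ± 0.0706 CPM in FMD_LO), as was the oestrogen receptor gene ESR1 (0.379 ± 0.201 CPM in CTR_LO against 0.577 ± 0.119 CPM in FMD_LO). The genes of both surface proteins used for sorting did not pass between the diets (adjusted p = 0.507 for CD24 and 0.258 for CD44), which does not show that they were unchanged. CD24 was at a low level (2.15 ± 0.77 CPM in CTR_LO against 1.59 ± 0.481 CPM in FMD_LO) and CD44 at a high one (930 ± 151 CPM in CTR_LO against 747 ± 137 CPM in FMD_LO).

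Far more genes stood higher under the fasting-mimicking diet than lower, and the higher ones differed by more. Of 15461 genes tested with edgeR, 2533 (16.4%) passed at an adjusted p below 0.05, of which 1863 (12.05%) rose and 670 (4.33%) fell. Counts of list members given below stand against these shares. Among genes that rose 1065 did so by more than 2-fold, 633 by more than 4-fold and 200 by more than 16-fold. Among those that fell the corresponding numbers were 127, 12 and 1. The median log2 fold change of all genes was -0.03, and the 3 FMD_LO libraries lay entirely above CTR_LO for 19.7% of genes and entirely below for 17.8%. With library totals as the only scaling, 1634 rose and 1271 fell, so the predominance of rises was smaller on that scale (56.2% of calls against 73.5%). The number that rose fell as low as 1316 without CTR_LO replicate 3. The number that fell was 335 lacking CTR_LO replicate 1, 261 lacking CTR_LO replicate 3, 284 lacking FMD_LO replicate 1 and 212 lacking FMD_LO replicate 2. In each of the 6 fits without 1 library, 1148 of the risen and 141 of the fallen genes kept their call. Where a count or p is given below without, or lacking, named libraries, each library was left out by itself.

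**Figure D1:**
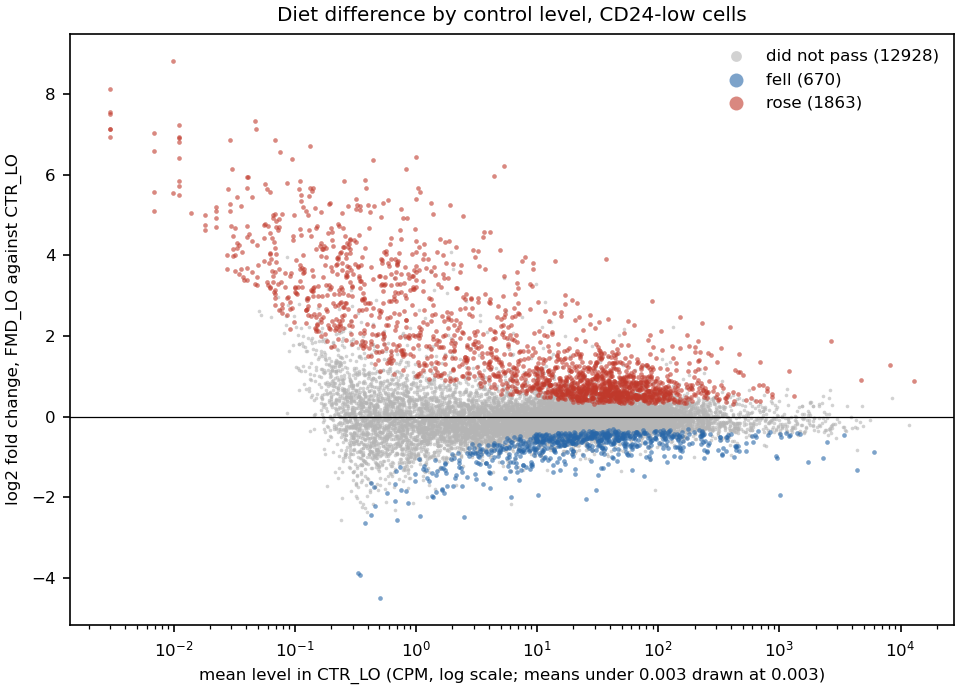
Each point is 1 of 15461 genes tested, placed by its mean level in the 3 CTR_LO libraries (x axis, CPM, log scale) and its fitted log2 fold change in FMD_LO against CTR_LO (y axis); red points rose and blue points fell at an adjusted p below 0.05. Rises of more than 16-fold (200 genes) lie mostly at the low end of the control level, and few falls go beyond 4-fold (12 genes).

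Rises were most frequent among genes that were barely detected under the control diet. Of 2366 genes below 1 CPM in CTR_LO, 21.7% rose, with a median log2 fold change of 3.45, and 0.803% fell. Between 1 and 10 CPM 9.43% rose, between 10 and 100 CPM 10.7% rose, and above 100 CPM 10.4% rose and 7.48% fell. A gene near 0 in CTR_LO enters the test only if it is detected in another group, so this share is in part set by the count filter. For 40 of the risen genes the 3 CTR_LO libraries held under 4 counts together, so their fitted folds depend on the prior count and are not printed.

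The share of genes that rose also differed by the kind of gene. Of 13690 protein-coding genes 12.9% rose and 4.45% fell. Of 855 long non-coding RNA genes 6 rose (0.702%) and 40 fell (4.68%), with a median control level of 1.32 CPM against 20.5 CPM for protein-coding genes. None of 142 small nucleolar RNA genes passed in either direction at an adjusted p below 0.05. Of 439 numbered ZNF genes, the large and fast-evolving family of zinc-finger repressors, 4.33% rose and 2.73% fell, with a median log2 fold change of -0.18 and a median control level of 6.19 CPM. Chromosome 19, which carries the largest clusters of that family, had the smallest share of risen genes (5.33% of 1013), and chromosomes 9 (17.9% of 593) and 17 (16.9% of 907) had the largest. No test of these shares was made.

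**Figure D2:**
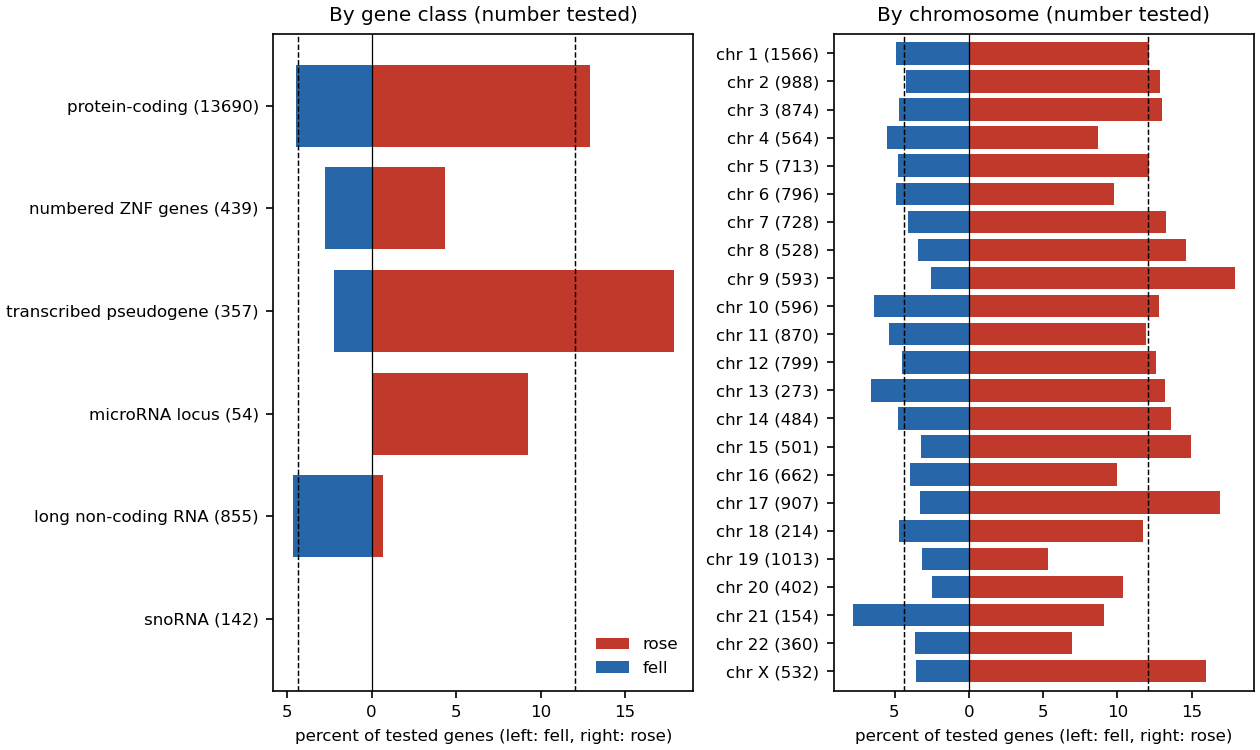
Percent of tested genes that rose (red, to the right) or fell (blue, to the left) in FMD_LO against CTR_LO, by gene class and by chromosome, with dashed lines at the shares of all genes (12.05% rose and 4.33% fell). Long non-coding RNA genes (0.702% rose), ZNF genes (4.33%) and chromosome 19 (5.33%) lie short of the line, and transcribed pseudogenes (17.9%) lie past it.

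Pseudogenes rose most often where they were barely detected under the control diet. Of 357 transcribed pseudogenes 64 rose (17.9%) and 8 fell, and of 10 others 6 rose. In 176 pairs of a pseudogene and the tested coding gene whose name it carries, 44 pseudogenes rose and 1 fell, and of the 131 distinct parents 13 rose and 12 fell. The levels differed: the median control level was 1.58 CPM for these pseudogenes and 75.6 CPM for the parents, and 32 of the 44 risen pseudogenes were below 1 CPM in CTR_LO. Of 138 transcribed pseudogenes below 1 CPM in CTR_LO 34.8% rose, against 21.7% of all genes below that level, and of 219 at or above it 7.31% rose, against 10.3% of all genes. A read that fits a copy slightly better than its parent, or the reverse, can be counted on the wrong one. These pseudogene values are therefore uncertain as measures of transcription from the copy.

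The smallest p-values of all were those of FBXL5, MSL2 and SUCO. FBXL5, the iron-sensing subunit of a ubiquitin ligase (chromosome 4, 15604381 to 15681569), stood at 29.3, 29 and 23.8 CPM in CTR_LO and 174, 155 and 140.2 CPM in FMD_LO (fitted log2 fold change 2.51 ± 0.12, adjusted p = 3.02e-07). MSL2, a ubiquitin ligase of a histone-acetylating complex (chromosome 3, 136148917 to 136196335), stood at 28.6, 35.4 and 26.9 CPM in CTR_LO and 129.5, 145 and 143 CPM in FMD_LO (fitted log2 fold change 2.2 ± 0.12, adjusted p = 5.67e-07). SUCO, a protein of the endoplasmic reticulum (chromosome 1, 172532349 to 172611833), stood at 27.9, 31 and 22.9 CPM in CTR_LO and 133, 134 and 136 CPM in FMD_LO (fitted log2 fold change 2.3 ± 0.13, adjusted p = 7.24e-07). In all 3 genes the lowest FMD_LO library lay more than 3 times above the highest CTR_LO library. Of the 12 risen genes with the smallest p, taken among genes of at least 5 CPM without overlap between the groups, 4 sit on chromosome 17. That chromosome held 153 of the 1863 risen genes, and no test of the number was made. A pair of the 4, PAFAH1B1 (LIS1) and NDEL1, both regulate the motor dynein. PAFAH1B1 (chromosome 17, 2593183 to 2685615) rose from 52.2 ± 5.4 to 219 ± 26.8 CPM (fitted log2 fold change 2.07 ± 0.12, adjusted p = 7.24e-07). NDEL1 (chromosome 17, 8413131 to 8474328) rose from 38.8 ± 5.74 to 209 ± 10.2 CPM (fitted log2 fold change 2.43 ± 0.15, adjusted p = 7.24e-07). The lipid carrier PITPNA rose from 45.3 ± 4.36 to 146 ± 6.39 CPM (1.69 ± 0.11, adjusted p = 1.17e-06). These 3 were joined on that chromosome by MAP2K4, a kinase that activates JNK and p38, which rose from 13.2 ± 1.88 to 54.2 ± 3.39 CPM (2.04 ± 0.13, adjusted p = 1.17e-06). Elsewhere in the genome, the actin-binding MARCKSL1 rose from 329 ± 32.4 to 1064 ± 35.1 CPM and OSBPL9, a carrier of sterols and phospholipids, from 85 ± 14.2 to 345 ± 26.7 CPM. The rises in MARCKSL1 and OSBPL9 had log2 fold changes of 1.69 ± 0.11 and 2.02 ± 0.14 and adjusted p of 1.17e-06 and 1.30e-06. The leukocyte genes HCLS1 and PTPRC, described below, belonged to the same 12.

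The smallest p-values among falls were larger than those among rises. ZSCAN31, a zinc-finger transcription factor (chromosome 6, 28324737 to 28356271), stood at 46.9, 42.5 and 37.8 CPM in CTR_LO and 21.1, 19.1 and 22.1 CPM in FMD_LO (fitted log2 fold change -1.03 ± 0.12, adjusted p = 6.77e-05). PADI3, which turns arginine into citrulline in skin and hair proteins (chromosome 1, 17249098 to 17284233), stood at 34, 31.4 and 29.7 CPM in CTR_LO and 12.4, 8.54 and 13.7 CPM in FMD_LO (fitted log2 fold change -1.46 ± 0.19, adjusted p = 1.57e-04). VSNL1, a neuronal calcium sensor (chromosome 2, 17539972 to 17657018), stood at 63.4, 57 and 57.4 CPM in CTR_LO and 30.9, 26.6 and 33.6 CPM in FMD_LO (fitted log2 fold change -0.96 ± 0.13, adjusted p = 2.96e-04). These genes were taken among those without overlap between the groups, so their separation was set by that rule. In each, every FMD_LO library was more than 1.5 times below the lowest control library. TP53AIP1, a mitochondrial protein that p53 induces, fell from 6.14 ± 1.23 to 1.54 ± 0.368 CPM (-1.99 ± 0.25, adjusted p = 1.55e-04), and RASSF6, a Ras-association domain protein, from 10.3 ± 2.07 to 2.66 ± 0.0637 CPM (-1.95 ± 0.27, adjusted p = 3.35e-04). These were the largest log2 falls among the 12 with the smallest p. RAB7B, a small GTPase of late endosomes, fell from 46 ± 5.19 to 21.5 ± 2.52 CPM (-1.1 ± 0.15, adjusted p = 3.35e-04). CFAP58, a protein of cilia and flagella, fell from 6.79 ± 0.568 to 2.63 ± 0.211 CPM (-1.36 ± 0.19, adjusted p = 2.81e-04). SLITRK6, a transmembrane protein of neurons and the inner ear, fell from 23.9 ± 3.9 to 12.4 ± 1.41 CPM (-0.95 ± 0.14, adjusted p = 4.46e-04). A pair of genes of innate immunity fell as well: CARD16, an inhibitor of caspase-1, from 16.3 ± 1.37 to 8.5 ± 1.16 CPM and C5AR1, the receptor of complement fragment C5a, from 9.12 ± 1.24 to 3.91 ± 0.228 CPM, with adjusted p of 5.44e-04 and 5.99e-04.

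**Figure D3:**
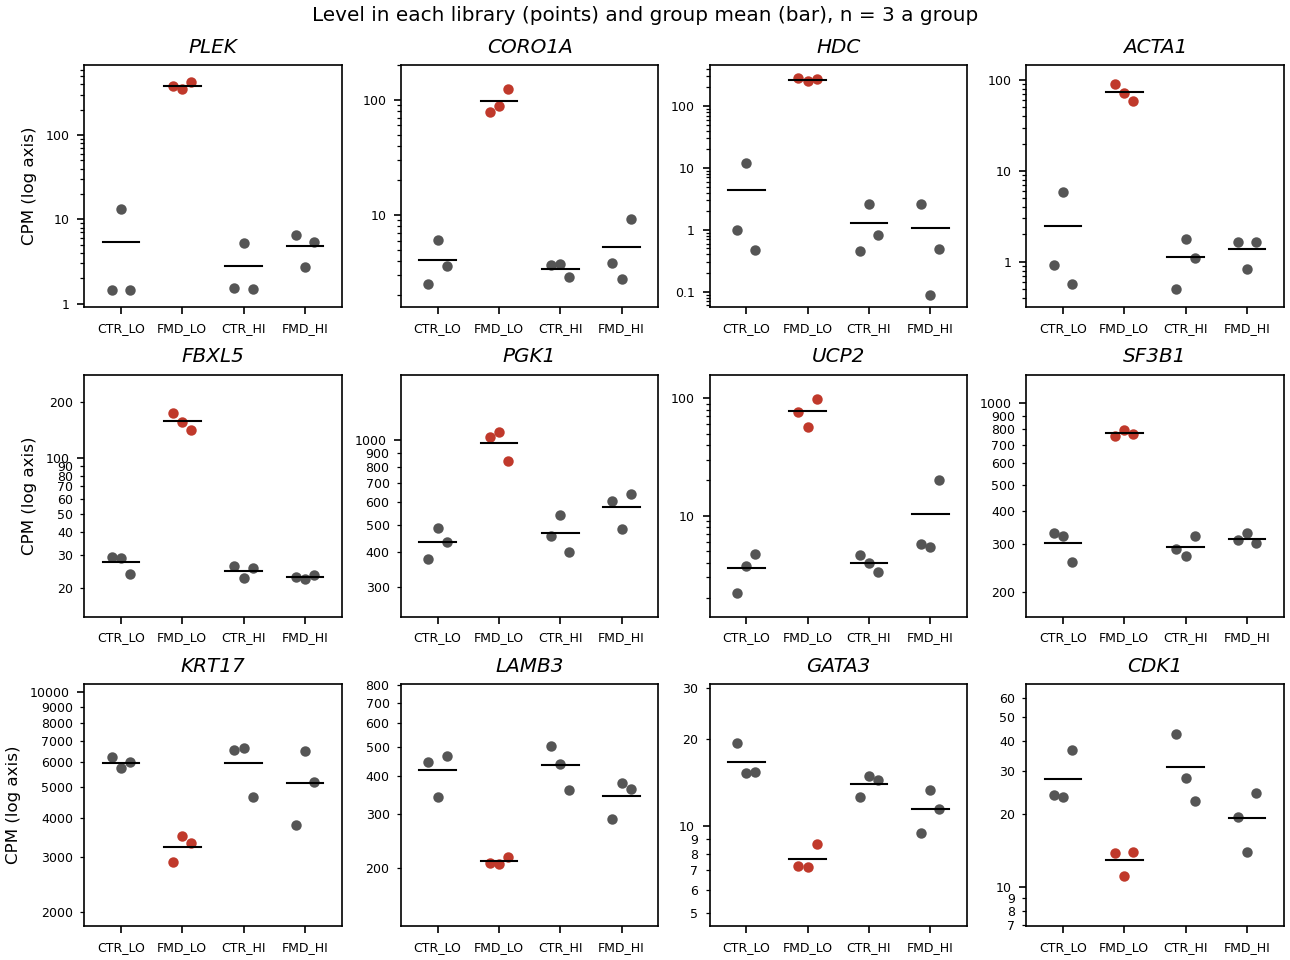
CPM (log axis) in each of the 12 libraries for 12 genes named in the text, 1 panel a gene, with replicates 1 to 3 of each group as points and the group mean as a bar. In 11 of the 12 panels the FMD_LO points stand clear of all 9 other libraries, above them in 8 and below them in KRT17, LAMB3 and GATA3; in CDK1 they overlap FMD_HI.

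Most listed white blood cell genes rose, and by large factors. Of 24 listed genes expressed throughout the leukocyte lineage 21 were tested, and 19 of these rose and none fell, with a median log2 fold change of 4.49. PLEK, pleckstrin, a protein kinase C substrate of platelets and leukocytes (chromosome 2, 68365282 to 68397453), stood at 1.45, 13.2 and 1.46 CPM in CTR_LO and 384, 350.4 and 422 CPM in FMD_LO (fitted log2 fold change 6.21 ± 0.96, adjusted p = 0.00219). NCKAP1L, the leukocyte subunit of the WAVE actin complex (chromosome 12, 54497752 to 54548243), stood at 1.08, 3.29 and 1.37 CPM in CTR_LO and 66.2, 71.5 and 76.7 CPM in FMD_LO (fitted log2 fold change 5.26 ± 0.47, adjusted p = 2.57e-05). CORO1A, a leukocyte coronin that binds actin (chromosome 16, 30183602 to 30189076), stood at 2.53, 6.11 and 3.62 CPM in CTR_LO and 77.9, 88.6 and 125 CPM in FMD_LO (fitted log2 fold change 4.59 ± 0.46, adjusted p = 7.33e-05). All 3 were more than 10 times higher in each FMD_LO library than in any CTR_LO library, and among the controls replicate 2, the library nearest to FMD_LO on the first component, was the highest in each. DOCK2, which activates RAC in migrating leukocytes, rose from 0.999 ± 0.704 to 40.2 ± 8.19 CPM (5.39 ± 0.45, adjusted p = 1.60e-05). PTPRC, the CD45 phosphatase that marks all leukocytes, rose from 2.94 ± 0.369 to 51.3 ± 7.78 CPM (4.12 ± 0.27, adjusted p = 1.17e-06). HCLS1, the leukocyte cortactin, rose from 6.87 ± 0.599 to 81.9 ± 13.7 CPM (3.58 ± 0.23, adjusted p = 1.17e-06). The list's summed level was 272 to 303 CPM in CTR_LO and 1343 to 1470.2 CPM in FMD_LO. Not every member rose. RAC2, a leukocyte GTPase, stood at 117 ± 9.0 CPM in CTR_LO against 102 ± 15.4 CPM in FMD_LO. ARHGDIB, an inhibitor of such GTPases, stood at 30.01 ± 2.51 CPM in CTR_LO against 19.2 ± 5.65 CPM in FMD_LO, and neither passed (adjusted p = 0.491 and 0.133). CD48 was at 0 counts in all 6 libraries and ITGAL and LST1 were below the count filter.

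Genes of single myeloid lineages split. Of 25 listed markers of macrophages and monocytes 13 were tested, and 6 of these rose and none fell, with a summed level of 25.9 to 42.4 CPM in CTR_LO and 131 to 161 CPM in FMD_LO. CSF1R, the marker of this list with the smallest p, rose from 1.5 ± 0.278 to 25.2 ± 5.04 CPM (fitted log2 fold change 4.08 ± 0.31, adjusted p = 3.15e-06). LYZ, lysozyme, rose from 0.854 ± 0.175 to 9.82 ± 2.59 CPM (fitted log2 fold change 3.53 ± 0.49, adjusted p = 4.09e-04). ITGAM, the CD11b integrin chain, rose from 0.38 ± 0.172 to 6.9 ± 1.73 CPM (4.19 ± 0.40, adjusted p = 1.88e-05). CYBB, the catalytic subunit of the phagocyte oxidase, rose from 0.96 ± 0.101 to 11.8 ± 3.38 CPM (3.62 ± 0.57, adjusted p = 0.00105). Other defining genes of the same cells gave no such rise: C1QA, C1QC, FCGR1A and CD300LF were at 0 counts in all 6 libraries, and CD68 stood at 10.3 ± 3.18 CPM in CTR_LO against 17.7 ± 5.08 CPM in FMD_LO (adjusted p = 0.128). Neutrophil markers rose in 4 of 11 tested (18 listed, summed level 7.17 to 83.6 CPM in CTR_LO and 87.2 to 98.5 CPM in FMD_LO), among them the chemokine receptor CXCR2 (from 0.719 ± 0.368 to 10.7 ± 2.88 CPM, adjusted p = 2.55e-05). The neutrophil protein gene S100A9 stood at 27 ± 22.5 CPM in CTR_LO against 13 ± 6.32 CPM in FMD_LO and did not pass (adjusted p = 0.594), and FPR1, MPO and ELANE were below the count filter. Of the neutrophil list 1 fell without FMD_LO replicate 3.

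A gene of histamine synthesis rose from a low level. HDC, histidine decarboxylase, which makes histamine in mast cells, basophils and some neutrophils (chromosome 15, 50241947 to 50265726), stood at 0.995, 11.9 and 0.475 CPM in CTR_LO and 284, 249 and 269 CPM in FMD_LO (fitted log2 fold change 5.96 ± 1.22, adjusted p = 0.00982). The FMD_LO values were close to each other and more than 20 times the highest control, which was again replicate 2. KIT, the stem cell factor receptor of mast cells, rose from 0.0665 ± 0.0876 to 2.42 ± 1.6 CPM (4.91 ± 0.87, adjusted p = 0.00502). CPA3, a mast cell protease, rose from 0.0689 ± 0.0491 to 0.827 ± 0.262 CPM (3.6 ± 0.88, adjusted p = 0.0129), and its adjusted p was 0.0561 lacking CTR_LO replicate 1 and 0.0556 lacking FMD_LO replicate 1. The genes HDC, KIT and CPA3 were the 3 risen of 5 tested and 12 listed mast cell and basophil markers (summed level 39.95 to 96.8 CPM in CTR_LO and 326 to 388 CPM in FMD_LO). FCER1A, MS4A2, CMA1 and HPGDS, which define mast cells and basophils, were at 0 counts in all 6 libraries. Of 22 lymphocyte markers 4 were tested, of which none passed in either direction, and CD3G, CD2, NKG7 and GZMB were at 0 counts throughout. Dendritic cell and MHC class II genes, which present antigen, rose in 5 of 12 and fell in 1, with HLA-DQA1 at 0.619 ± 0.225 CPM in CTR_LO against 9.18 ± 4.83 CPM in FMD_LO (adjusted p = 0.0019). Their summed level was 65.8 to 95.9 CPM in CTR_LO and 58.5 to 76.2 CPM in FMD_LO. In that list 3 rose without CTR_LO replicates 1 or 3 or FMD_LO replicates 1 or 2 and 0 fell without CTR_LO replicates 1 or 3 or FMD_LO replicate 3. Of 15 genes of MHC class I presentation, which most cells use, 0 rose and 1 fell, and 0 fell without CTR_LO replicates 1 or 3 or FMD_LO replicates 1 or 2. In bulk RNA, more cells of a type and more RNA per cell cannot be told apart. The part of host cells in this and the following results was not tested.

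Reads on 2 microRNA loci of the blood lineage accompanied these genes. The mature sequences of both, from RefSeq on GRCh38.p14, are shown because they name the loci that rose, with the seed (bases 2 to 8) in capitals, and the 4 seeds differ.
hsa-miR-142-5p: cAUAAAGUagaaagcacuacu
hsa-miR-142-3p: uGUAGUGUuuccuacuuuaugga
hsa-miR-223-5p: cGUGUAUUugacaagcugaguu
hsa-miR-223-3p: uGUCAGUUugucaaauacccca

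MIR142, which is made in all blood cells (chr17:58331232-58331318, minus strand), had 1, 3 and 2 counts in CTR_LO and 14, 17 and 53 counts in FMD_LO (adjusted p = 0.00151). MIR223, a microRNA of granulocytes and monocytes (chrX:66018870-66018979, plus strand), had 0, 1 and 0 counts in CTR_LO and 12, 18 and 9 counts in FMD_LO (adjusted p = 0.00285). The groups did not overlap at either locus. Of 54 microRNA loci tested 5 rose (9.26%) and none fell. These libraries were made from polyadenylated RNA, so the reads come from longer transcripts across the locus and say nothing of the mature microRNA.

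A short motif was looked for in the promoters of the leukocyte genes. PU.1, the myeloid transcription factor encoded by SPI1, binds sites with a GGAA core, and the letters searched were GAGGAAGT on either strand in the 250 bases before the start. They were found in 2.04% of the 11788 tested genes with a RefSeq promoter, in 4 of 17 pan-leukocyte genes (23.5%), in 3.05% of all genes that rose and in 1.51% of those that fell. The stretch around the match is printed for those 4, in capitals where it matches, from RefSeq on GRCh38.p14.
LCP1 (chr13:46182333-46182400, minus strand): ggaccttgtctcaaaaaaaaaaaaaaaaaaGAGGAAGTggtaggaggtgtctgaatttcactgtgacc
LCP2 (chr5:170297820-170297887, minus strand): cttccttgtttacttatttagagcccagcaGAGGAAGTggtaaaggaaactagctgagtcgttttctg
VAV1 (chr19:6772667-6772707, plus strand): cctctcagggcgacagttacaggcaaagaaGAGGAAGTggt
INPP5D (chr2:233060249-233060316, plus strand): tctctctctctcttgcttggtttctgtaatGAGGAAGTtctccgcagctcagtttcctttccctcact

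All 4 genes rose. LCP1, the actin-bundling protein L-plastin, stood at 109.6, 106 and 104 CPM in CTR_LO and 482, 458 and 447 CPM in FMD_LO (fitted log2 fold change 2.12 ± 0.16, adjusted p = 3.72e-06). LCP2, the adaptor SLP-76, rose from 0.19 ± 0.156 to 7.08 ± 0.755 CPM (5.28 ± 0.46, adjusted p = 1.02e-05). VAV1, which activates small GTPases, rose from 0.26 ± 0.24 to 5.6 ± 0.342 CPM (4.49 ± 0.58, adjusted p = 1.83e-04). INPP5D, the phosphatase SHIP1 that acts against PI3K, rose from 5.6 ± 2.92 to 21.6 ± 4.25 CPM (1.95 ± 0.35, adjusted p = 0.00269). SPI1 itself stood at 0.808, 2.08 and 1.25 CPM in CTR_LO and 41.7, 41.1 and 48.1 CPM in FMD_LO, again without overlap. A match of letters is a description of the sequence and not a site.

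Genes of vessel walls and muscle rose in part. Of 15 tested markers of pericytes and smooth muscle 8 rose and none fell (median 1.19), with a summed level of 601 to 1131 CPM in CTR_LO and 1279 to 1808 CPM in FMD_LO. ACTA2, smooth muscle actin, stood at 116, 85.3 and 56.1 CPM in CTR_LO and 216, 348 and 195 CPM in FMD_LO (fitted log2 fold change 1.56 ± 0.31, adjusted p = 0.00483). MYH11, smooth muscle myosin, rose from 0.673 ± 0.795 to 9.84 ± 2.63 CPM (3.92 ± 0.66, adjusted p = 0.00168). DES, desmin, rose from 0.567 ± 0.641 to 9.08 ± 3.39 CPM (4.04 ± 0.76, adjusted p = 0.00383). The pericyte marker RGS5 rose from 4.05 ± 1.38 to 13.3 ± 5.24 CPM (1.71 ± 0.31, adjusted p = 0.0019). ABCC9, another, rose from 1.22 ± 0.253 to 4.12 ± 1.34 CPM (1.75 ± 0.34, adjusted p = 0.00309). Other markers of pericytes did not pass. PDGFRB, the receptor that defines pericytes, stood at 222 ± 133 CPM in CTR_LO against 506 ± 63.9 CPM in FMD_LO (adjusted p = 0.222). CSPG4, the pericyte antigen NG2, stood at 179 ± 27.3 CPM in CTR_LO against 141 ± 20.5 CPM in FMD_LO (adjusted p = 0.172). In this list 1 fell without CTR_LO replicate 3. ACTA1, skeletal muscle actin (chromosome 1, 229431245 to 229434094), stood at 0.912, 5.88 and 0.564 CPM in CTR_LO and 90.9, 72.1 and 58.8 CPM in FMD_LO (fitted log2 fold change 4.97 ± 0.78, adjusted p = 0.00237). It was high in all 3 FMD_LO libraries, but MYH4 and MYOD1, which define skeletal muscle, were at 0 counts in all 6 libraries and 2 of 10 tested muscle markers rose (summed level 54.4 to 77.8 CPM in CTR_LO and 104 to 142 CPM in FMD_LO). The other risen member was MYLPF, a myosin light chain (from 0.0909 ± 0.00908 to 0.424 ± 0.102 CPM, adjusted p = 0.0491), whose adjusted p was 0.0535 to 0.0952 with DESeq2, no count filter, a replicate block or library totals as the scaling, and 0.125 lacking CTR_LO replicate 1, 0.0897 lacking CTR_LO replicate 2, 0.119 lacking CTR_LO replicate 3, 0.118 lacking FMD_LO replicate 1, 0.167 lacking FMD_LO replicate 2 and 0.0602 lacking FMD_LO replicate 3. Of the muscle list 1 rose without CTR_LO replicates 1, 2 or 3 or FMD_LO replicates 1, 2 or 3. The actins are nearly identical in their coding sequence, so a read of 1 actin can be counted under another. Of 16 endothelial markers 3 rose and none fell, and 1 rose without FMD_LO replicate 1 and 7 rose without CTR_LO replicate 2. PECAM1, which defines endothelium, stood at 3.14 ± 0.817 CPM in CTR_LO against 4.8 ± 0.967 CPM in FMD_LO and did not pass (adjusted p = 0.0956), and the list's summed level was 92 to 101 CPM in CTR_LO and 117 to 183 CPM in FMD_LO.

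Among 19 fibroblast markers 9 rose and none fell, with a median of 0.88. FBLN2, the matrix protein fibulin-2 (chromosome 3, 13549125 to 13638404), stood at 4.72, 17.4 and 1.6 CPM in CTR_LO and 163, 119 and 83 CPM in FMD_LO (fitted log2 fold change 3.96 ± 0.82, adjusted p = 0.0102). Its FMD_LO values were all more than 4 times the highest control value, that of replicate 2, and with only the 6 compared libraries in the fit its adjusted p was 0.0548. DCN, decorin, which defines fibroblasts, stood at 58.8 ± 38.3 CPM in CTR_LO against 65.8 ± 11.8 CPM in FMD_LO and did not pass (adjusted p = 0.896). The list's summed level, carried by collagen chains that SUM159 libraries of every group held at high level, was 22342 to 39029.6 CPM in CTR_LO and 50175 to 74062 CPM in FMD_LO. Of these markers 2 rose without CTR_LO replicate 3, 4 rose without FMD_LO replicate 2 and 5 rose without FMD_LO replicate 1.

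Part of the keratin and junction genes fell. Of 14 keratins tested 5 fell and 2 rose, and of 16 desmosome and junction genes 6 fell and none rose (medians -0.39 and -0.56). KRT17, a keratin of basal and stressed epithelium (chromosome 17, 41619442 to 41624575), stood at 6215, 5742 and 6009 CPM in CTR_LO and 2894, 3486 and 3321 CPM in FMD_LO (fitted log2 fold change -0.89 ± 0.19, adjusted p = 0.00512). CDH3, P-cadherin of basal cells (chromosome 16, 68645310 to 68733771), stood at 346, 278 and 384 CPM in CTR_LO and 155, 169.98 and 208 CPM in FMD_LO (fitted log2 fold change -0.92 ± 0.16, adjusted p = 0.00178). F11R, the junction adhesion molecule JAM-A (chromosome 1, 160995211 to 161021152), stood at 58.5, 52.9 and 57.7 CPM in CTR_LO and 30.4, 30.4 and 27.3 CPM in FMD_LO (fitted log2 fold change -0.94 ± 0.17, adjusted p = 0.00182). In all 3 each FMD_LO library was below each CTR_LO library. The basal pair KRT5 and KRT14 fell from 4348 ± 458 to 1752 ± 767 CPM and from 2306 ± 303 to 1136 ± 430.3 CPM (adjusted p = 0.0134 and 0.0333). These calls depended on single libraries: the adjusted p of KRT5 was 0.0528 lacking CTR_LO replicate 3, 0.0565 lacking FMD_LO replicate 1 and 0.0688 lacking FMD_LO replicate 2, and that of KRT14 was 0.0699 with no count filter and 0.0819 lacking CTR_LO replicate 2, 0.108 lacking CTR_LO replicate 3, 0.136 lacking FMD_LO replicate 1 and 0.14 lacking FMD_LO replicate 2. The fall was not limited to basal keratins: KRT18 fell from 401 ± 36.1 to 299 ± 30.5 CPM (adjusted p = 0.0266). It kept its call in 2 of the 6 fits without 1 library. Among the keratins 0 rose without CTR_LO replicate 3 or FMD_LO replicate 2, 1 rose without CTR_LO replicates 1 or 2 or FMD_LO replicate 1, 1 fell without FMD_LO replicates 1 or 2, 2 fell without CTR_LO replicate 3 and 3 fell without CTR_LO replicate 2. Plakoglobin, JUP, which links desmosomes and adherens junctions, fell from 325 ± 9.29 to 217 ± 22.7 CPM (-0.58 ± 0.12, adjusted p = 0.00369), and the tight junction gene CLDN1 from 226 ± 16.1 to 141 ± 25.3 CPM (-0.68 ± 0.15, adjusted p = 0.0068).

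Integrins and laminins, which attach cells to the basement membrane, changed in both directions. Of 26 tested 5 rose and 4 fell (median 0.15), and 2 rose without CTR_LO replicate 3 or FMD_LO replicates 1 or 2. Basal cells hold on to laminin-332 through the integrin of chains alpha 6 and beta 4. ITGA6 stood at 502, 391 and 491 CPM in CTR_LO and 247, 227 and 289 CPM in FMD_LO (fitted log2 fold change -0.86 ± 0.17, adjusted p = 0.00303), and its partner ITGB4 fell from 439 ± 92.2 to 259 ± 52.1 CPM (-0.76 ± 0.17, adjusted p = 0.00707). LAMB3, a chain of laminin-332 (chromosome 1, 209614870 to 209652425), stood at 445, 343 and 467 CPM in CTR_LO and 207, 205 and 216 CPM in FMD_LO (fitted log2 fold change -1.0 ± 0.16, adjusted p = 7.16e-04). Both integrin chains and the laminin chain were lower in each FMD_LO library. LAMA2, the alpha chain of the laminin of muscle and nerve, rose from 2.74 ± 1.73 to 10.7 ± 0.825 CPM (1.96 ± 0.38, adjusted p = 0.00331).

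Some transcription factors of epithelial states fell and some of mesenchymal states rose. GATA3, a regulator of luminal breast cells (chromosome 10, 8045333 to 8075198), stood at 19.3, 15.3 and 15.4 CPM in CTR_LO and 7.24, 7.18 and 8.68 CPM in FMD_LO (fitted log2 fold change -1.11 ± 0.16, adjusted p = 4.56e-04). TP63, the master factor of basal cells, fell from 264 ± 36 to 169 ± 9.76 CPM (-0.65 ± 0.15, adjusted p = 0.0105). Of 12 epithelial regulators 4 fell and 1 rose (0 rose without CTR_LO replicates 1 or 2 or FMD_LO replicate 1). On the mesenchymal side 6 of 17 genes rose and none fell, with a median of 0.27 against -0.03 for all genes. PRRX1, a homeobox factor of mesenchyme (chromosome 1, 170662768 to 170739421), stood at 79.8, 66.7 and 32.1 CPM in CTR_LO and 169, 213 and 121 CPM in FMD_LO (fitted log2 fold change 1.49 ± 0.30, adjusted p = 0.00602). TCF4, an E-box-binding factor, rose from 54.4 ± 10.5 to 97.6 ± 12.7 CPM (0.84 ± 0.17, adjusted p = 0.00354). In both the groups were apart. Among 17 markers used for breast stem cells, 3 rose and 1 fell, and 1 rose without CTR_LO replicate 3 or FMD_LO replicate 1. The 1 that fell was ITGA6. CXCR4, the receptor of the homing chemokine CXCL12 that leukocytes also carry, stood at 0.352, 1.68 and 0.327 CPM in CTR_LO and 17.7, 22.3 and 28.8 CPM in FMD_LO (fitted log2 fold change 4.93 ± 0.67, adjusted p = 5.35e-04).

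**Figure D4:**
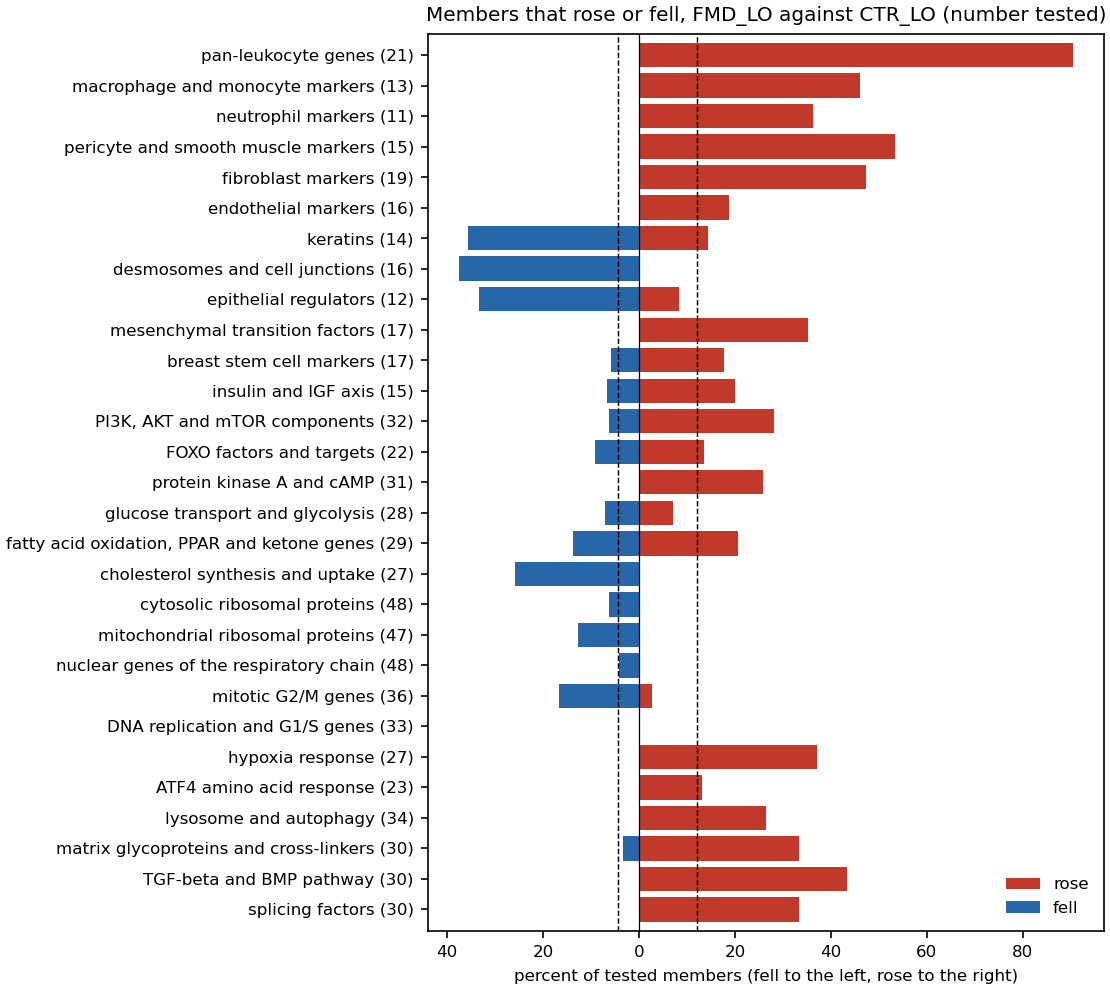
Percent of the tested members of 29 gene lists that rose (red, to the right) or fell (blue, to the left) in FMD_LO against CTR_LO, with the number tested in brackets and dashed lines at the shares of all genes (12.05% rose and 4.33% fell). Pan-leukocyte genes reach furthest to the right (19 of 21 rose), and junction genes (6 of 16 fell), keratins (5 of 14) and epithelial regulators (4 of 12) reach furthest to the left.

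The axis of insulin and insulin-like growth factor, which fasting lowers in blood, had members that rose and 1 that fell. Of 15 tested 3 rose and 1 fell, against 12.05% and 4.33% of all genes, and 0 fell without CTR_LO replicate 3 or FMD_LO replicates 1 or 2 and 2 fell without CTR_LO replicate 2. IGF1, the growth factor itself, which connective tissue and macrophages also make (chromosome 12, 102395874 to 102481839), stood at 0.746, 1.21 and 0.327 CPM in CTR_LO and 7.24, 7.12 and 5.05 CPM in FMD_LO (fitted log2 fold change 3.09 ± 0.46, adjusted p = 5.25e-04). IGFBP7, a binding protein of the matrix (chromosome 4, 57030773 to 57110385), stood at 238, 253 and 171 CPM in CTR_LO and 710.2, 708 and 588 CPM in FMD_LO (fitted log2 fold change 1.6 ± 0.19, adjusted p = 8.00e-05). Both were higher in all FMD_LO libraries. The insulin receptor gene INSR stood at 15.8 ± 2.42 CPM in CTR_LO against 18.7 ± 3.52 CPM in FMD_LO (adjusted p = 0.425).

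Inside the cell, more PI3K, AKT and mTOR genes rose than fell: 9 of 32 rose and 2 fell (median 0.36). PIK3CG, the catalytic subunit of leukocyte PI3K, rose from 0.206 ± 0.0527 to 3.85 ± 0.0442 CPM (4.23 ± 0.50, adjusted p = 9.89e-05). SESN3, a FOXO target that inhibits mTORC1, fell, with 270.3, 229 and 258 CPM in CTR_LO and 144, 136 and 131 CPM in FMD_LO (fitted log2 fold change -0.88 ± 0.15, adjusted p = 0.0015). The fall in SESN3 left no overlap between the groups. In the list 1 fell without CTR_LO replicates 1 or 3 or FMD_LO replicate 2. Among FOXO factors and targets 3 of 22 rose, near the 12.05% of all genes, and 2 fell, against 4.33% of all genes. BCL2L11, the cell death protein BIM, was among the risen (from 38.6 ± 5.66 to 71.7 ± 9.79 CPM, adjusted p = 0.00324). In the FOXO list 1 rose without CTR_LO replicates 1 or 3 or FMD_LO replicate 2 and 1 fell without CTR_LO replicates 1, 2 or 3 or FMD_LO replicates 1 or 2. Of 13 genes of the energy sensor AMPK 2 rose, also near the 12.05% of all genes. PRKAG2, a regulatory subunit, was among them (from 1.75 ± 0.409 to 4.91 ± 1.22 CPM, adjusted p = 0.00393), and in this list 1 rose without CTR_LO replicate 1 or FMD_LO replicates 1 or 2.

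Protein kinase A and cyclic AMP genes rose in 8 of 31 and fell in none (median 0.21). Members on both sides of the signal were among them. GNAS, the stimulatory G protein that turns on adenylyl cyclase (chromosome 20, 58839748 to 58911192), stood at 779.7, 887 and 718 CPM in CTR_LO and 1279, 1230.4 and 1168 CPM in FMD_LO (fitted log2 fold change 0.63 ± 0.11, adjusted p = 0.00213). PDE7B, a phosphodiesterase that breaks cyclic AMP down (chromosome 6, 135851701 to 136195574), stood at 6.15, 5.98 and 4.07 CPM in CTR_LO and 35.1, 34.9 and 24.4 CPM in FMD_LO (fitted log2 fold change 2.54 ± 0.25, adjusted p = 2.29e-05). PRKAR2B, a regulatory subunit that restrains the kinase, rose from 0.272 ± 0.354 to 3.46 ± 0.364 CPM (3.73 ± 0.84, adjusted p = 0.00991). In these 3 genes the FMD_LO libraries were all above CTR_LO. Of the list 4 rose without CTR_LO replicate 3 or FMD_LO replicate 2, 5 rose without CTR_LO replicate 1 or FMD_LO replicate 1 and 2 fell without FMD_LO replicate 3. Downstream, 6 of 19 CREB factors, coactivators and targets rose and none fell, and 3 rose without CTR_LO replicate 3 or FMD_LO replicate 2. ATF2, a CREB-family factor, stood at 41.2, 44.4 and 34.3 CPM in CTR_LO and 71.9, 68.7 and 57.7 CPM in FMD_LO (fitted log2 fold change 0.73 ± 0.13, adjusted p = 0.00182). SIK3, a kinase that keeps CRTC coactivators out of the nucleus, rose from 24.5 ± 3.24 to 49.8 ± 11.7 CPM (1.02 ± 0.19, adjusted p = 0.00262). The cyclic AMP response element TGACGTCA was found in the 250 bases before the start of 2.82% of all genes, 2.55% of the risen, 2.26% of the fallen and none of the 16 genes of the CREB list that have a promoter in the table.

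In glucose metabolism single steps changed. Of 28 glycolysis genes 2 rose and 2 fell, against 12.05% and 4.33% of all genes, so rises were no more frequent than among all genes. The list's median was 0.08 and turned negative with library totals as the scaling. In this list 1 rose without CTR_LO replicates 1 or 3 or FMD_LO replicates 1 or 2, 0 fell without CTR_LO replicates 2 or 3 or FMD_LO replicates 1 or 2 and 1 fell without CTR_LO replicate 1. PGK1, phosphoglycerate kinase, which makes ATP in glycolysis (chromosome X, 78104248 to 78129295), stood at 378, 488 and 435 CPM in CTR_LO and 1018, 1061 and 841 CPM in FMD_LO (fitted log2 fold change 1.17 ± 0.16, adjusted p = 2.34e-04). Every FMD_LO library was higher. The pyruvate dehydrogenase kinases, which switch off entry of pyruvate into the citric acid cycle and of which PDK4 is induced by fasting in muscle and liver, rose in part. PDK4 stood at 1.49, 3.8 and 1.22 CPM in CTR_LO and 9.79, 12.8 and 5.91 CPM in FMD_LO (fitted log2 fold change 2.15 ± 0.47, adjusted p = 0.00903), and PDK3 rose from 0.362 ± 0.331 to 5.47 ± 0.251 CPM (3.96 ± 0.51, adjusted p = 1.67e-04). PDK1 stood at 21.3 ± 1.93 CPM in CTR_LO against 27.8 ± 3.53 CPM in FMD_LO and did not pass (adjusted p = 0.177).

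Genes that burn and store fat changed in both directions. Of 29 genes of fatty acid oxidation, PPAR signalling and ketone making 6 rose and 4 fell. UCP2, an uncoupling protein of the inner mitochondrial membrane that is high in leukocytes (chromosome 11, 73974672 to 73983202), stood at 2.22, 3.73 and 4.75 CPM in CTR_LO and 75.8, 56.4 and 98.9 CPM in FMD_LO (fitted log2 fold change 4.45 ± 0.54, adjusted p = 3.36e-04). SLC25A20, which carries acylcarnitines into mitochondria, rose from 12.3 ± 1.19 to 22.3 ± 1.38 CPM (0.86 ± 0.15, adjusted p = 0.00133). A pair of enzymes of the oxidation cycle itself fell. HADH, a dehydrogenase of the cycle, stood at 48.2, 37.1 and 44.2 CPM in CTR_LO and 27.2, 27.1 and 28.5 CPM in FMD_LO (fitted log2 fold change -0.64 ± 0.14, adjusted p = 0.00634). ACADM, the medium-chain dehydrogenase that opens the cycle, stood at 34.8, 33.2 and 32.6 CPM in CTR_LO and 20.7, 26 and 22.4 CPM in FMD_LO (fitted log2 fold change -0.54 ± 0.11, adjusted p = 0.00552). Neither enzyme overlapped between the diets. DGAT2, which makes triglyceride for storage (chromosome 11, 75768778 to 75801534), stood at 4.37, 7.09 and 8.38 CPM in CTR_LO and 61.1, 49.7 and 52 CPM in FMD_LO (fitted log2 fold change 3.04 ± 0.28, adjusted p = 1.82e-05), about 8 times higher in FMD_LO. Among the oxidation genes 2 fell without CTR_LO replicate 1 or FMD_LO replicates 1 or 2.

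Some cholesterol synthesis genes fell. Of 27 genes of synthesis and uptake 7 fell and none rose (median -0.41), and 11 had every FMD_LO library below every CTR_LO library, which 17.8% of all genes did. SC5D, a sterol desaturase, stood at 36.9, 43.1 and 42.4 CPM in CTR_LO and 25.9, 23.3 and 27.6 CPM in FMD_LO. HMGCS1, an early enzyme of the pathway, fell from 234 ± 59.9 to 151 ± 11.1 CPM (fitted log2 fold change -0.63 ± 0.19, adjusted p = 0.0388), a call that rested on single libraries: its adjusted p was 0.125 lacking CTR_LO replicate 2, 0.124 lacking CTR_LO replicate 3, 0.103 lacking FMD_LO replicate 1, 0.0722 lacking FMD_LO replicate 2 and 0.0814 lacking FMD_LO replicate 3. In the list 1 fell without CTR_LO replicate 3 or FMD_LO replicate 1 and 2 fell without CTR_LO replicate 2 or FMD_LO replicate 2. Among 14 export genes and LXR targets 2 rose, near the 12.05% of all genes, and none fell. NR1H2, which encodes the sterol receptor LXR beta, was among the risen (from 49.4 ± 0.829 to 66.2 ± 2.45 CPM, adjusted p = 0.00695). In the export list 1 rose without CTR_LO replicates 1 or 3 or FMD_LO replicates 1 or 2.

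Most genes of ribosomes and mitochondria had small negative differences, and few passed. Of 48 cytosolic ribosomal protein genes 46 had a negative log2 fold change (median -0.27) and 3 fell (1 fell without CTR_LO replicates 2 or 3 or FMD_LO replicates 1 or 2 and 5 fell without FMD_LO replicate 3). Of 47 mitochondrial ribosomal protein genes 46 were negative (median -0.29) and 6 fell (0 fell without FMD_LO replicates 1 or 2, 1 fell without CTR_LO replicates 2 or 3, 2 fell without CTR_LO replicate 1 and 11 fell without FMD_LO replicate 3). Nuclear genes of the respiratory chain were negative in 41 of 48 (median -0.26, 2 fell, and 0 fell without CTR_LO replicates 2 or 3 or FMD_LO replicate 1, 1 fell without CTR_LO replicate 1 or FMD_LO replicate 2 and 5 fell without FMD_LO replicate 3). Over all genes tested 53.2% were negative. In CD24-high cells the medians of the same lists were 0.04, -0.02 and -0.02. Of 33 proteasome subunits and assembly factors 3 rose and 1 fell, no more than the 12.05% and 4.33% of all genes. PSMD11, a subunit of its regulatory particle, rose from 57 ± 5.02 to 94.1 ± 7.94 CPM (fitted log2 fold change 0.72 ± 0.11, adjusted p = 5.23e-04). In the proteasome list 1 rose without CTR_LO replicates 1 or 3 or FMD_LO replicates 2 or 3 and 0 fell without CTR_LO replicates 1, 2 or 3 or FMD_LO replicates 1 or 2.

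Some genes of cell division fell. Of 36 genes of G2 and mitosis 6 fell and 1 rose, 34 were negative and the median was -0.70, close to the -0.60 of CD24-high cells. All 33 genes of DNA replication and G1 to S were negative (median -0.37) and none passed with edgeR (1 fell with DESeq2, and 1 fell without CTR_LO replicate 2 and 4 fell without FMD_LO replicate 3). Of the mitotic genes 0 rose without CTR_LO replicates 1 or 3 or FMD_LO replicates 1 or 2, 0 fell without CTR_LO replicate 3 or FMD_LO replicates 1 or 2, 2 fell without CTR_LO replicate 2 and 19 fell without FMD_LO replicate 3. The promoters of mitotic genes often carry a CHR, a cell cycle homology region read by the DREAM and MuvB complexes, with CCAAT boxes read by NF-Y upstream of it. In the 250 bases before the start the CHR letters TTTGAA were found, on either strand, in 55.2% of the 29 mitotic genes with a promoter, in 1 of 30 replication genes and in 8.98% of all genes, while the 5 letters CCAAT were found in 79.3%, 56.7% and 35%. Among all genes that rose 9.78% held the CHR letters, and among those that fell 9.81%. Of the 7 mitotic genes that passed, 4 have a promoter in the table, and these are shown because each holds both motifs, whichever way the gene went. In HMMR, CENPA and CKS2 the CHR letters begin 28, 18 and 29 bases before the start, downstream of every CCAAT match. In CDK1 they begin 161 bases before the start, and the CCAAT match lies downstream of them, so the order of matches in this window is the reverse. Bases after the RefSeq start were not searched. The matches therefore describe the printed window only, and may not be the elements that act in the promoter. The kinase genes AURKA and TTK and the ubiquitin-conjugating UBE2C also fell (adjusted p = 0.047, 0.0203 and 0.0327). The promoters are printed with CHR and CCAAT matches on either strand in capitals (RefSeq, GRCh38.p14, all on the plus strand).
CDK1 (chr10:60778081-60778330): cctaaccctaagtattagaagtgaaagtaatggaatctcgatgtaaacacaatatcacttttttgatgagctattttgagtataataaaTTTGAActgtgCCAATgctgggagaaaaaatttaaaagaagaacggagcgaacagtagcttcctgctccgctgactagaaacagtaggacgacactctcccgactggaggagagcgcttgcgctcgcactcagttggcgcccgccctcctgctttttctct
HMMR (chr5:163460382-163460631): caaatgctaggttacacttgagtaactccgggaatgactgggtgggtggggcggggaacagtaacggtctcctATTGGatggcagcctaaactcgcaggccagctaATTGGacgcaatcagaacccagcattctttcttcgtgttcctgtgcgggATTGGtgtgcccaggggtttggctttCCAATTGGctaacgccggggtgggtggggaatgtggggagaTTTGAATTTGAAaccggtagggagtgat
CENPA (chr2:26785806-26786055): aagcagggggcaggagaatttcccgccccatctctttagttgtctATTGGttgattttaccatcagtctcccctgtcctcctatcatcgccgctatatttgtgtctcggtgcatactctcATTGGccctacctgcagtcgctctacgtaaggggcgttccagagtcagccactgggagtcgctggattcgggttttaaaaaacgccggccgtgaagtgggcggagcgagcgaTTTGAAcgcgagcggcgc
CKS2 (chr9:89310945-89311194): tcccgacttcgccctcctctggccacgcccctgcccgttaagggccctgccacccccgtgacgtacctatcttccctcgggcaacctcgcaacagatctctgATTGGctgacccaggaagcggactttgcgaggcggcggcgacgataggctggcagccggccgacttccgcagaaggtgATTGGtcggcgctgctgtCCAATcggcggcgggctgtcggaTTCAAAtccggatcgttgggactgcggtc

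Of these genes 3 fell and 1 rose. The mitotic kinase gene CDK1 stood at 23.8, 23.4 and 36.5 CPM in CTR_LO and 13.8, 11.1 and 14 CPM in FMD_LO (fitted log2 fold change -1.1 ± 0.27, adjusted p = 0.0142). HMMR, a receptor of hyaluronan that also organises the spindle, fell from 11.3 ± 2.23 to 5.52 ± 2.1 CPM (-1.03 ± 0.29, adjusted p = 0.0279), and CENPA, the histone variant of centromeres, fell from 8.87 ± 2.94 to 4.04 ± 1.61 CPM (-1.13 ± 0.36, adjusted p = 0.0479). CKS2, a small partner of cyclin-dependent kinases, rose, with 43.1, 59.1 and 45.6 CPM in CTR_LO and 76.4, 74.8 and 68.1 CPM in FMD_LO (fitted log2 fold change 0.57 ± 0.17, adjusted p = 0.0339). None of the 7 mitotic calls held in all 6 fits without 1 library. For CDK1 the adjusted p was 0.0703 lacking CTR_LO replicate 3, 0.0503 lacking FMD_LO replicate 1 and 0.0774 lacking FMD_LO replicate 2. For HMMR it was 0.0754 lacking CTR_LO replicate 2, 0.0967 lacking CTR_LO replicate 3, 0.101 lacking FMD_LO replicate 1 and 0.122 lacking FMD_LO replicate 2. For CENPA it was 0.0526 lacking CTR_LO replicate 1, 0.0611 lacking CTR_LO replicate 2, 0.192 lacking CTR_LO replicate 3, 0.121 lacking FMD_LO replicate 1 and 0.177 lacking FMD_LO replicate 2, and 0.0534 to 0.0689 with RLE scaling, no filter, only the 6 compared libraries or reads of either strand. For CKS2 it was 0.12 lacking CTR_LO replicate 1, 0.113 lacking CTR_LO replicate 3, 0.097 lacking FMD_LO replicate 1 and 0.0962 lacking FMD_LO replicate 2. For AURKA it was 0.0799 lacking CTR_LO replicate 1, 0.07 lacking CTR_LO replicate 2, 0.163 lacking CTR_LO replicate 3, 0.135 lacking FMD_LO replicate 1 and 0.177 lacking FMD_LO replicate 2, and 0.0545 to 0.0720 with RLE scaling, no filter or reads of either strand. For TTK it was 0.0907 lacking CTR_LO replicate 3, 0.0804 lacking FMD_LO replicate 1 and 0.0949 lacking FMD_LO replicate 2. For UBE2C it was 0.0613 lacking CTR_LO replicate 2, 0.133 lacking CTR_LO replicate 3, 0.126 lacking FMD_LO replicate 1 and 0.139 lacking FMD_LO replicate 2, and 0.0801 with no filter.

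Of the stress responses, that to low oxygen had the most members that rose: 10 of 27, and none fell (median 0.70). P4HA1, a collagen prolyl hydroxylase subunit (chromosome 10, 73007217 to 73096866), stood at 73.1, 79 and 62.3 CPM in CTR_LO and 193, 199.6 and 115 CPM in FMD_LO (fitted log2 fold change 1.24 ± 0.20, adjusted p = 0.001). ARNT, the partner of the hypoxia-inducible factors, rose from 35.9 ± 2.22 to 64.3 ± 10.1 CPM (0.84 ± 0.17, adjusted p = 0.00348). EGLN1, the oxygen sensor that marks those factors for destruction, rose from 40.5 ± 1.92 to 65.8 ± 13.6 CPM (0.70 ± 0.14, adjusted p = 0.00326). In these 3 genes the groups did not overlap. VEGFA, a classical target of the pathway, stood at 1187 ± 46.4 CPM in CTR_LO against 1087 ± 176 CPM in FMD_LO (adjusted p = 0.659). In the list 6 rose without CTR_LO replicate 3.

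Other stress lists had few calls. The amino acid response run by ATF4 rose in 3 of 23, near the 12.05% of all genes, and fell in none (1 fell without FMD_LO replicate 3). VLDLR, a lipoprotein receptor, stood at 4.75, 5.71 and 3.39 CPM in CTR_LO and 18.1, 11.3 and 14.1 CPM in FMD_LO (fitted log2 fold change 1.65 ± 0.29, adjusted p = 0.00171). CEBPB, a transcription factor of inflammation and fat cells, rose from 471 ± 89.6 to 1007 ± 67.1 CPM (1.1 ± 0.21, adjusted p = 0.00302), although with reads of either strand the log2 fold change was 0.46 (adjusted p = 0.16). ASNS, asparagine synthetase, a well known target of the response, stood at 17.4 ± 0.483 CPM in CTR_LO against 21.1 ± 4.97 CPM in FMD_LO (adjusted p = 0.342). CRYAB, a small heat shock protein of muscle and lens, rose from 4.06 ± 2.86 to 28.2 ± 2.67 CPM (2.81 ± 0.46, adjusted p = 0.00152) as 1 of 2 risen among 20 heat shock genes, near the 12.05% of all genes. In the heat shock list 1 rose without CTR_LO replicates 1 or 3 or FMD_LO replicate 2. FTH1, the heavy chain of the iron store ferritin (chromosome 11, 61964285 to 61967634), stood at 3613, 5682 and 4850.5 CPM in CTR_LO and 9652, 9351 and 7756 CPM in FMD_LO (fitted log2 fold change 0.92 ± 0.21, adjusted p = 0.00898) and was the 1 gene of 20 in the NRF2 list that rose (1 fell without CTR_LO replicate 1). Interferon response genes passed in 1 of 28, RSAD2, an antiviral enzyme (from 0.835 ± 0.562 to 6.22 ± 3.93 CPM, adjusted p = 0.00298), with a list median of -0.18, and 2 rose without CTR_LO replicate 3. DUSP6, a phosphatase that ERK signalling induces, fell, with 204, 243 and 270.2 CPM in CTR_LO and 133, 134 and 138 CPM in FMD_LO (fitted log2 fold change -0.83 ± 0.15, adjusted p = 0.0018). Cytokine and NF-kB genes fell in 4 of 26 and rose in 1, and 0 rose without CTR_LO replicates 1 or 3 or FMD_LO replicates 1 or 2, 0 fell without FMD_LO replicate 3, 1 fell without CTR_LO replicates 1, 2 or 3 or FMD_LO replicate 1 and 2 fell without FMD_LO replicate 2.

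Lysosome and autophagy genes rose in 9 of 34 and fell in none. BECN1, beclin-1, which starts autophagosomes (chromosome 17, 42810132 to 42824282), stood at 64.6, 66 and 59.97 CPM in CTR_LO and 99.3, 110.3 and 118 CPM in FMD_LO (fitted log2 fold change 0.78 ± 0.10, adjusted p = 2.02e-04). ATP6V1A, the catalytic subunit of the proton pump that acidifies lysosomes (chromosome 3, 113747035 to 113812056), stood at 34.5, 38.9 and 33.5 CPM in CTR_LO and 90.9, 84.8 and 63.9 CPM in FMD_LO (fitted log2 fold change 1.17 ± 0.14, adjusted p = 9.26e-05). WIPI1, a phosphoinositide-binding protein of forming autophagosomes, rose from 16 ± 4.28 to 41 ± 4.21 CPM (1.36 ± 0.19, adjusted p = 2.85e-04). The FMD_LO libraries of all 3 lay above CTR_LO. TFEB, the factor that switches lysosome genes on, stood at 31 ± 2.8 CPM in CTR_LO against 28.2 ± 2.45 CPM in FMD_LO (adjusted p = 0.465).

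A larger part of the matrix genes rose than of all genes. Of 24 collagen chains 6 rose and 1 fell, and of 30 matrix glycoproteins and cross-linking enzymes 10 rose and 1 fell (medians 0.46 and 0.47). COL12A1, a collagen that decorates collagen fibrils under tension (chromosome 6, 75084326 to 75206053), stood at 247, 287 and 154 CPM in CTR_LO and 1418, 1301 and 705 CPM in FMD_LO (fitted log2 fold change 2.32 ± 0.33, adjusted p = 5.84e-04). COL5A2, a chain of the collagen that sets fibril width, rose from 1203 ± 199 to 2646 ± 564 CPM (1.14 ± 0.19, adjusted p = 0.00103). THBS3, a thrombospondin of cartilage and bone (chromosome 1, 155195588 to 155209178), stood at 42.4, 37.1 and 31.4 CPM in CTR_LO and 80.3, 84.4 and 71.6 CPM in FMD_LO (fitted log2 fold change 1.09 ± 0.15, adjusted p = 3.17e-04). In these genes no FMD_LO library fell into the control range. ADAM10, a sheddase of membrane proteins, rose from 49.7 ± 1.53 to 74.7 ± 6.87 CPM (0.59 ± 0.12, adjusted p = 0.00416) and ADAMTS5, which cuts aggrecan, from 2.41 ± 1.61 to 10.4 ± 0.519 CPM (2.09 ± 0.48, adjusted p = 0.0106, and 0.0511 with only the 6 compared libraries), among 8 of 25 metalloproteinases and inhibitors that rose. Among the collagens 3 rose without CTR_LO replicate 3 or FMD_LO replicate 2, 0 fell without CTR_LO replicates 1 or 3 or FMD_LO replicates 2 or 3 and 2 fell without CTR_LO replicate 2. Among the metalloproteinases 5 rose without CTR_LO replicate 3 or FMD_LO replicate 1.

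TGF-beta and BMP signalling had 13 risen members of 30 and none that fell (median 0.56). Receptors, transducers and feedback inhibitors were all among them. ACVRL1, the receptor ALK1 of endothelium and phagocytes, rose from 0.348 ± 0.407 to 11.7 ± 0.977 CPM (fitted log2 fold change 5.13 ± 0.72, adjusted p = 5.41e-04). SMAD4, the shared transducer of the pathway (chromosome 18, 51030213 to 51085042), stood at 50.05, 49.4 and 41.6 CPM in CTR_LO and 84.6, 85.6 and 66.5 CPM in FMD_LO (fitted log2 fold change 0.75 ± 0.12, adjusted p = 0.00116). SKIL, which represses SMAD complexes and is itself a target of the pathway, stood at 32.2, 36.8 and 27 CPM in CTR_LO and 78.2, 76.5 and 52.8 CPM in FMD_LO (fitted log2 fold change 1.11 ± 0.23, adjusted p = 0.00552). In SMAD4 and SKIL each FMD_LO library was above each CTR_LO library. Of the list 5 rose without CTR_LO replicate 3 or FMD_LO replicate 1, 6 rose without FMD_LO replicate 2, 7 rose without CTR_LO replicate 1 and 1 fell without CTR_LO replicate 1.

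Further signalling pathways had single members that moved. RBPJ, the DNA-binding factor of Notch signalling (chromosome 4, 26105449 to 26435131), stood at 39.7, 54.1 and 37.8 CPM in CTR_LO and 125, 110.2 and 97.3 CPM in FMD_LO (fitted log2 fold change 1.34 ± 0.16, adjusted p = 1.05e-04), 1 of 5 Notch genes that rose among 19, with 2 that fell. The Wnt ligand WNT5A stood at 21.4, 18.6 and 10.9 CPM in CTR_LO and 46.9, 62.6 and 31.3 CPM in FMD_LO (fitted log2 fold change 1.46 ± 0.27, adjusted p = 0.00262), and the receptor FZD2 rose from 11.3 ± 0.965 to 20.4 ± 2.22 CPM (0.85 ± 0.17, adjusted p = 0.00329) and the coreceptor LRP6 from 20.4 ± 1.7 to 36.9 ± 6.01 CPM (0.86 ± 0.18, adjusted p = 0.00512). These were among 5 risen and no fallen genes of 30 in the Wnt and Hippo list, against 12.05% risen of all genes. NRP2, a coreceptor of VEGF and semaphorins, rose from 53.1 ± 6.83 to 96.5 ± 17.9 CPM (0.86 ± 0.20, adjusted p = 0.00996) and FGFR2, a fibroblast growth factor receptor, from 0.596 ± 0.337 to 4.37 ± 0.845 CPM (2.88 ± 0.46, adjusted p = 8.09e-04). In the Notch list 2 rose without CTR_LO replicate 3, 3 rose without CTR_LO replicate 1 or FMD_LO replicate 2, 0 fell without CTR_LO replicates 1 or 3 or FMD_LO replicates 1 or 2 and 1 fell without FMD_LO replicate 3. In the Wnt list 3 rose without CTR_LO replicates 1 or 3 or FMD_LO replicates 1 or 2.

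Splicing factors, which are expressed in every cell, rose in part. Of 30 tested 10 rose and none fell, with a median of 0.19 and a summed level of 9444 to 10542 CPM in CTR_LO and 10856 to 12326 CPM in FMD_LO. SF3B1, a core protein of the U2 particle (chromosome 2, 197389784 to 197435093), stood at 329, 323 and 259 CPM in CTR_LO and 759, 797 and 772 CPM in FMD_LO (fitted log2 fold change 1.35 ± 0.12, adjusted p = 1.04e-05). TRA2A, a regulator of exon choice (chromosome 7, 23504780 to 23531981), stood at 66.2, 80.5 and 69.5 CPM in CTR_LO and 145, 159 and 148 CPM in FMD_LO (fitted log2 fold change 1.06 ± 0.13, adjusted p = 1.55e-04). RBM25, which promotes a death-inducing form of BCL-X, rose from 116 ± 8.73 to 191 ± 22.5 CPM (0.73 ± 0.12, adjusted p = 0.00124). RBM39, a partner of the splicing machinery, rose from 235 ± 17.3 to 369 ± 17.6 CPM (0.65 ± 0.12, adjusted p = 0.00201). All 4 factors were higher in each FMD_LO library. HOX genes, which mark position along the body, rose in 6 of 29 and fell in none (1 fell without FMD_LO replicate 3). HOXD4 stood at 0.107 ± 0.0707 CPM in CTR_LO against 1.02 ± 0.323 CPM in FMD_LO (adjusted p = 0.00509), so the rise of this gene reached a level near 1 CPM.

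The same diets were also compared in CD24-high cells. In FMD_HI against CTR_HI none of 15461 genes passed with edgeR (0.00%), 1042 had an unadjusted p below 0.05, and DESeq2 called 35 higher and 40 lower. The difference between the 2 diet differences, tested as an interaction, passed for 630 genes with the larger change upward in CD24-low cells (4.07%) and for 8 with it downward (0.0517%). Of the 1863 risen genes 617 (33.1%) also passed the interaction, and 61.3% had the same sign in CD24-high cells, where their median log2 fold change was 0.06. Of the 670 fallen genes 8 passed the interaction and 87.2% had the same sign, with a median of -0.18. Over all genes 51.0% were negative in CD24-high cells. PLEK stood at 1.55, 5.24 and 1.49 CPM in CTR_HI and 6.52, 2.73 and 5.43 CPM in FMD_HI and FBXL5 at 26.1, 22.7 and 25.5 CPM in CTR_HI and 23, 22.4 and 23.3 CPM in FMD_HI, with interaction p, adjusted, of 0.044 and 1.00e-05. KRT17 stood at 6578, 6638 and 4644 CPM in CTR_HI and 3802, 6511 and 5207 CPM in FMD_HI, and the interaction did not pass (adjusted p = 0.201). CDK1, with a log2 fold change of -0.69 ± 0.26 in CD24-high cells (adjusted p = 0.637), had an interaction of adjusted p = 0.678. The interaction called 409 genes upward lacking CTR_LO replicate 3, 408 lacking FMD_LO replicate 1 and 380 lacking FMD_LO replicate 2, against 1122 with DESeq2. Downward it called 0 lacking CTR_LO replicate 3 or FMD_LO replicate 2, 4 lacking FMD_LO replicate 1, 15 lacking CTR_LO replicate 2, 16 lacking FMD_LO replicate 3 and 34 with DESeq2. Libraries thinned to equal totals gave 562 and 8. The labels do not say whether CD24-low and CD24-high libraries of the same diet and number came from the same tumours, but these correlated in their deviations from the group means, at 0.445, 0.522 and 0.0373 in the control diet and 0.444, 0.285 and 0.485 in the fasting-mimicking diet. With a block for each such pair, an alternative chosen after seeing the data, the interaction called 1387 genes upward and 315 downward, and 620 of the 638 genes of the fit without it were among them. The depth gap and the separate place of FMD_LO on the first component go with it, so the part of cell population, library and depth in the difference cannot be told apart.

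**Figure D5:**
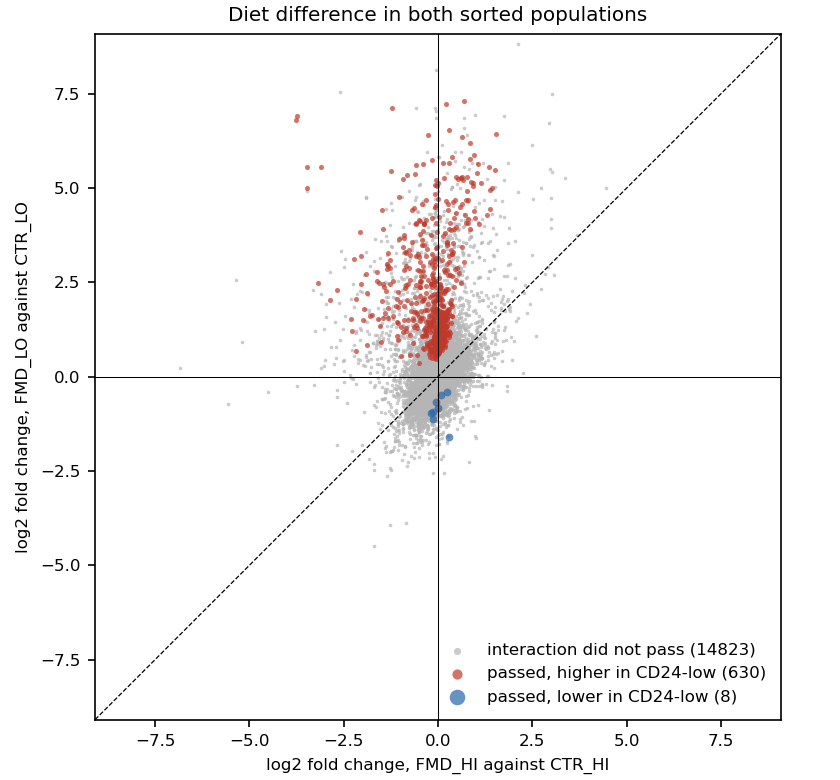
Log2 fold change of the fasting-mimicking against the control diet in CD24-high cells (x axis) and in CD24-low cells (y axis) for the 15461 genes tested, with genes whose interaction passed in red (630, larger upward change in CD24-low cells) or blue (8). The red points lie high on the y axis around 0 on the x axis, and the blue points lie below the diagonal.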

How the data were processed

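Messenger RNA of sorted cells was sequenced from strand-specific, polyadenylated libraries (500 ng of total RNA each, per the labels' protocols). The deposited values were raw read counts per gene symbol for each library, which the authors made with STAR on hg38 per the submitters' processing notes; their versions and the annotation release are not stated in the sources at hand. The column of reverse-strand counts was used, the strand this kit reads.

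All 12 libraries, 3 in each of 4 groups, were fitted with edgeR 4.0.16 (R 4.3.3, robust quasi-likelihood, TMM scaling, default count filter by group, 8 residual degrees of freedom), and a gene passed (rose or fell) at an adjusted p (Benjamini-Hochberg) below 0.05 over 15461 genes. Standard errors were taken as the log2 fold change over the root of its F statistic. Alternatives were RLE and library-total scaling, no filter, DESeq2 1.42.0, reads of either strand, only the 6 compared libraries, a replicate block, thinning, and each of the 6 libraries left out. Chosen after seeing the data, a block for CD24-low and CD24-high libraries of the same diet and number was added for the interaction (4 residual degrees of freedom). The procedure was tested on simulated data.

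The comparison and the 66 gene lists were chosen with earlier results of these data known. The text prints part of the genes taken by a rule: CD24, CD44, the 12 smallest p in each direction (at least 5 CPM, no overlap), and up to 4 called members of each list, or the smallest p where none was called. The other 36 printed genes were chosen after their values were seen. Positions and sequences came from RefSeq on GRCh38.p14, which 25311 of 26475 symbols matched. The variance between replicates was a median of 6.08 to 11.0 times that of counting noise, by group.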

Additional observations from a re-analysis of the deposited data

Results flagged for a closer look

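For 52 of the genes named, the diet difference in CD24-low cells differed from that in CD24-high cells by the interaction test over all genes. CSF1R, MMP8 and RGS5 were not counted among the 52 and passed upward as well (adjusted p = 6.91e-04, 0.0178 and 0.0105). Of all genes tested 4.07% passed upward and 0.0517% downward. The named genes were in part taken for small p-values in CD24-low cells, whose diet difference enters the interaction, or after their values were seen. Their number is therefore no measure of how often the interaction passes. A larger rise below means a higher diet difference in CD24-low cells, whatever its sign in CD24-high cells. In CD24-high cells the fitted log2 fold change was negative for some, such as ACTA2 (-0.67), IGF1 (-1.27) and HOXD4 (-2.03). It was positive for others, such as SPI1 (1.44), and none of these passed there. Among leukocyte genes, the larger rise in CD24-low cells had these adjusted p: CXCR2 (0.00171), CORO1A (0.00483), DOCK2 (0.00322), HCLS1 (1.08e-04), INPP5D (0.0147), ITGAM (0.00483), LCP1 (2.37e-04), LCP2 (0.00329), NCKAP1L (0.00209), PLEK (0.044), SPI1 (0.00443), VAV1 (0.0105), PTPRC (3.84e-05) and CXCR4 (0.037). Among muscle, vessel and matrix genes, the larger rise in CD24-low cells had these adjusted p: ACTA2 (0.0142), COL12A1 (0.0212), COL5A2 (0.0327), THBS3 (0.00246), LAMA2 (0.0156), PRRX1 (0.042), ACVRL1 (0.0227), IGF1 (0.00481), IGFBP7 (0.00141), P4HA1 (0.0354) and CRYAB (0.0152). Among genes of cell structure, RNA and protein handling, they were ATP6V1A (0.00422), BECN1 (0.0382), FBXL5 (1.00e-05), HOXD4 (0.037), MAP2K4 (1.08e-04), MARCKSL1 (1.08e-04), MSL2 (3.84e-05), NDEL1 (5.05e-05), OSBPL9 (9.83e-05), PAFAH1B1 (5.10e-05), PITPNA (1.33e-04), PSMD11 (0.0265), SF3B1 (9.77e-04), SUCO (3.84e-05) and TRA2A (0.00384). Among genes of signalling and metabolism, they were ATF2 (0.034), DGAT2 (0.00422), FZD2 (0.0187), PDE7B (5.08e-04), PDK3 (0.0147), PGK1 (0.0432), RBPJ (0.00944), SMAD4 (0.0336), UCP2 (0.037) and WNT5A (0.0319). In the opposite direction, the larger fall in CD24-low cells had adjusted p of CARD16 (0.0354) and SLITRK6 (0.0401). All FMD_LO libraries were also the shallowest of the series. With libraries thinned to equal totals the interaction passed for 562 genes upward and 8 downward, against 630 and 8 at full depth. With a block for CD24-low and CD24-high libraries of the same diet and number, 50 of the 52 passed, and the adjusted p was 0.0768 for ACTA2 and 0.101 for PRRX1.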

How the results depend on the processing

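The number of genes that rose stayed within 1.5 times of 1863 under all 14 alternatives (1316 to 2235). The number that fell was 670, and 1271 with library totals as the scaling. Leaving out single libraries gave 1316 to 1939 genes that rose and 212 to 856 that fell. The interaction called 630 genes upward (1122 with DESeq2, 1387 with the replicate block within each diet, 380 to 752 without single libraries) and 8 downward (34 with DESeq2, 315 with the replicate block within each diet, 5 with no count filter, 16 with the replicate block, 0 to 16 without single libraries). In CD24-high cells the number called was 0, and 75 with DESeq2, 1 with no count filter, 1 with the replicate block and 0 to 1 without single libraries. The cause of these shifts was not tested. The log2 difference of DCN, which did not pass, was 0.16 and changed sign without CTR_LO replicate 2 (-0.03) and CTR_LO replicate 3 (-0.14), within a range of -0.14 to 0.83 over the fits without 1 library. Leaving aside ABCC9, CSF1R, FLT1, FPR2, KDR, KRT18, MMP8, RGS5 and TEK, no other named gene changed direction under any of the 14 alternatives that tested it. The genes left aside were not followed through all alternatives here. Of 123 other named genes that passed 111 did so in all 6 fits without 1 library. The named genes were in part taken for small p-values or after their values were seen. Among all called genes the share that kept the call in these 6 fits was smaller, above all among those that fell.

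Replicate numbers did not pair the diet groups: samples of the same number correlated at -0.117, 0.0013 and 0.0824 in their deviations from the group means, and not every sample correlated best with its own number. A fit with a block for replicate number called 2028 genes higher and 839 lower. It changed 1 call among the named genes that were followed through the alternatives, that of MYLPF (adjusted p = 0.0634).

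Depth limits the lowest genes: for 40 of those that rose the 3 control libraries held under 4 counts together.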
